A study of Homo sapiens with 9 samples.

Results

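The 10 epithelial keratin genes KRT7, KRT8, KRT80, KRT18, KRT19, KRT20, KRT23, KRT10, KRT15 and KRT17 were examined among the 58395 genes of each deposited table. KRT7 was chosen by its measured fall in both comparisons with the empty vector, so its changes are given as a description with no test. The other 9 were listed as its family with earlier results of these data known, so their tests are not independent evidence. All 9 libraries came from HCT116, an established human colon carcinoma line, in which a hairpin called shSTBD1 knocks down STBD1. There were 3 stable lines with 3 biological replicates each. The lines carried the plvx neo vector without insert, STBD1 WT, or STBD1 W203C, in which a tryptophan is replaced by cysteine. Both inserts are described as resistant to the hairpin. STBD1 is a glycogen-binding protein, and the replaced residue lies in the motif through which it binds the autophagy protein GABARAPL1. Whether each line was 1 clone or a pool, and which promoter drove the insert, is not given in the sources used here. Names of the deposited tables and labels of the samples disagree on which libraries are STBD1 WT and which STBD1 W203C. Labels were followed here, and with the names of the tables instead every direction between the constructs would turn and their comparisons with plvx neo would change places.

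Keratins are the intermediate filament proteins of epithelia, and each filament is built from pairs of 1 type I chain and 1 type II chain. Type II genes lie in a cluster on chromosome 12, and type I genes in a cluster on chromosome 17, except the type I gene KRT18, which sits beside KRT8 in the type II cluster. KRT8 and KRT18 are the pair of simple epithelia, KRT19 is a further type I chain of such epithelia, and KRT7 and KRT20 serve pathologists as markers of the origin of a carcinoma, with KRT20 typical of the colon.

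Total expected counts (the reads RSEM assigned to genes) ranged from 16.9 to 23.3 M per library. STBD1 was listed at 2.75 to 3.84 TPM (a level per transcript length, scaled to a fixed total in each library) with plvx neo, at 10.79 to 10.91 with STBD1 WT and at 8.37 to 10.33 with STBD1 W203C, which separated both constructs from the vector but did not tell which construct is which. Of 16 colon epithelium markers, 4 had a mean above 1 TPM in each group. EPCAM was at 178.59 to 225.53 TPM and CDH1 at 17.7 to 29.56 TPM. CDX2 was at 5.16 to 9.35 TPM and HNF4A at 2.89 to 4.1 TPM. The listed markers CDX1, FABP1, CEACAM5, TFF3 and PHGR1 were at 0 in every library, so the label colon epithelium rests on EPCAM, CDH1, CDX2 and HNF4A and not on these. Summed over the 16 markers the level was 231.19 to 237.75 TPM with plvx neo, 218.77 to 233.82 with STBD1 WT and 239.9 to 261.86 with STBD1 W203C. Of the fibroblast list 1 of 6 genes was above 1 TPM, COL1A1, with DCN and LUM at 0 and a summed level of 13.87 to 16.55, 16.7 to 21.75 and 12.76 to 18.32 TPM in the same order. Of the leukocyte list 1 of 6 was above 1 TPM, CD68, with PTPRC at no more than 0.01 TPM and a sum of 2.62 to 2.82, 4.38 to 7.67 and 2.32 to 2.95 TPM. Of 3 endothelial markers 0 exceeded 1 TPM, at sums of 0.03 to 0.16, 0.04 to 0.22 and 0.01 to 0.09 TPM. Of 8 squamous markers 1 did, KRT13, with IVL at 0 and sums of 1.28 to 2.68, 1.91 to 2.54 and 1.39 to 3.49 TPM. The part of these markers in the keratin results was not tested, and in bulk RNA fewer cells of a type and less RNA per cell cannot be told apart.

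Promoter sequence was given for 3 of the 10 genes, KRT8, KRT10 and KRT20, as RefSeq windows on GRCh38.p14. Each ran from 250 bases before to 50 bases after an annotated start. KRT7, KRT18, KRT19, KRT23, KRT15, KRT17 and KRT80 have no window here. The windows of KRT8, which fell with both constructs, and of KRT10, which passed the test in no comparison, are shown 5′ to 3′ on the strand of the gene, with motif matches in capitals. They lie at chr12:52926420-52926719 and chr17:40822565-40822864, both on the minus strand.
KRT8: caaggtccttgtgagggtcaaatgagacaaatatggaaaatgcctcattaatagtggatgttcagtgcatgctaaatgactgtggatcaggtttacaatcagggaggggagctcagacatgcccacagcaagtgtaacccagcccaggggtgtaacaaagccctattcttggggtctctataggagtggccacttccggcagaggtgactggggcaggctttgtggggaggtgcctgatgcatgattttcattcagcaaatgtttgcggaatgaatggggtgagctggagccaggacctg
KRT10: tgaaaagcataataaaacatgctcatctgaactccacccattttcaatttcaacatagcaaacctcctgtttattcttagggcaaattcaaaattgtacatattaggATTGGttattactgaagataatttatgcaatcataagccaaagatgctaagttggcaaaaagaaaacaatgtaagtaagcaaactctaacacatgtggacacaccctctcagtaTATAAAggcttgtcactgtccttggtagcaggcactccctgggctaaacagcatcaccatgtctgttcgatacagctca
The motifs named next were searched on both strands, with no overlap between any of their matches here. The KRT10 window holds the TATA box letters, TATAAA, beginning at position -29 from the start. It also holds the CCAAT box on the opposite strand, where it reads ATTGG, at position -143. The KRT20 window holds the CCAAT box at position -79. The KRT8 window holds no match to either of these, to the GC box, written GGGCGG, or to the AP-1 site, written TGANTCA. Among 35116 RefSeq windows of this length, the TATA box letters were found in 11.5%, those of the GC box in 45.0%, those of the CCAAT box in 34.6% and those of the AP-1 site in 7.71%. The GC content was 50.7% for KRT8 and 37.7% for KRT10, against a median of 58.7% over all windows. KRT8 has several annotated starts. Its window surrounds 52926469, the start of an inner transcript, whereas the gene in GENCODE v44 begins at 52949954 on the minus strand. A further protein-coding transcript, of 1882 bases in 9 exons, starts at 52906618. Which start these cells use was not tested, so the window may not be the one in use.

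KRT8, KRT19 and KRT18 dominated in every library. Together they made up 97.45% ± 0.11 of the TPM of the 10 genes with plvx neo (SD, n = 3 libraries per group here and below), 97.26% ± 0.12 with STBD1 WT and 97.36% ± 0.12 with STBD1 W203C. By mean TPM they ranked 85th, 156th and 174th of all genes in plvx neo. KRT10, a keratin best known from the upper epidermis, came next with 53.70 to 64.65 TPM over the 9 libraries. In plvx neo the order went on with KRT7, KRT15, KRT23, KRT80, KRT20 and KRT17, and KRT7 and KRT15 did not differ beyond their spread. In STBD1 WT, KRT15 and KRT23 stood above KRT7, and only the neighbours KRT80 and KRT20 overlapped. In STBD1 W203C the order was as in STBD1 WT, and the libraries of KRT23 and KRT7 overlapped. KRT17, a keratin of injured and basal epithelium, was assigned 1 count in plvx neo replicates 1 and 2 and in STBD1 WT replicate 3, and 0 in the other 6 libraries. It was not tested, and 0 counts in the STBD1 W203C libraries allow a level of up to 0.161, 0.173 and 0.165 CPM (counts scaled to the library total), a limit that covers counting error only.

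**Figure D1:**
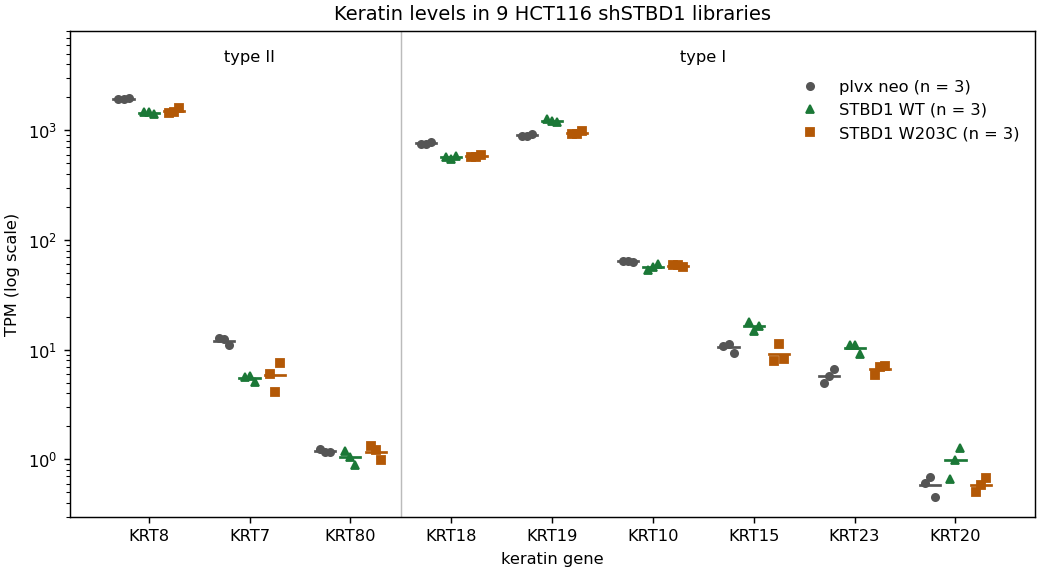
TPM of 9 keratin genes (x axis) on a log scale (y axis) in each of 9 libraries, with horizontal lines for the mean of each group of 3. KRT8, KRT18 and KRT19 lie at or above 552.76 TPM in every library and KRT20 stays at or below 1.28 TPM, and KRT17, at 0 to 0.13 TPM, is not drawn.

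KRT7 (ENSG00000135480) is a type II keratin of glandular and transitional epithelia, at 52232520 to 52252186 on the plus strand of chromosome 12 (hg38, GENCODE v44). Its level was 12.82, 12.55 and 11.00 TPM with plvx neo replicates 1 to 3, then 5.61, 5.81 and 5.11 with STBD1 WT, and 6.06, 4.13 and 7.58 with STBD1 W203C. Every library of either construct lay below every plvx neo library, while the libraries of the constructs overlapped each other. The mean TPM in STBD1 WT was 0.455 times that of plvx neo, and in STBD1 W203C 0.489 times. On counts, the log2 fold change from plvx neo was -1.40 (SE 0.118) with STBD1 WT and -1.15 (SE 0.138) with STBD1 W203C. It was 0.26 (SE 0.182) in STBD1 W203C vs STBD1 WT. These values chose the gene and carry no test. STBD1 W203C replicate 3 was the highest of the construct libraries, and without it the difference between the constructs was -0.02 on the log2 scale.

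The change of KRT7 on counts was larger than the change in TPM in STBD1 WT vs plvx neo because TPM divides by transcript length, and RSEM gave the gene a shorter mean length there, weighted by the shares of its isoforms. That length was 1509, 1569 and 1640 bases with plvx neo, 1124, 1446 and 1450 bases with STBD1 WT and 1243, 1754 and 1561 bases with STBD1 W203C. STBD1 WT did not overlap plvx neo (difference of -232.6 bases), and its replicate 1 was the shortest of all libraries. STBD1 W203C overlapped both other groups. Length enters the TPM by which KRT7 was chosen, so no test of it is given. KRT7 overlaps the antisense gene KRT7-AS, the keratin gene KRT86 on its own strand and the pseudogene KRT87P. These were assigned 0 to 5, 1 to 8 and 0 to 1 counts per library, against 80 to 321 for KRT7. No source states a strand setting for the counting, so reads of the gene and of its antisense partners cannot be told apart.

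**Figure D2:**
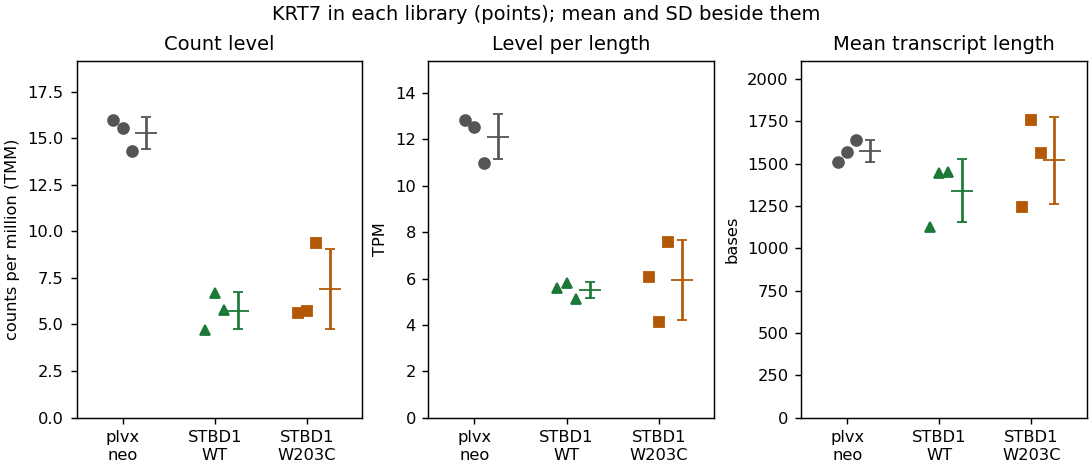
KRT7 in each library as CPM after TMM scaling, which adjusts library totals, (left), TPM (middle) and RSEM mean transcript length in bases (right), by group, with mean and SD (n = 3) beside the points. On both level scales the 3 plvx neo libraries sit above the 6 construct libraries, whereas for length STBD1 W203C overlaps both other groups.

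The patterns most like KRT7 over the 9 libraries were those of PCK2, PSAT1, ASNS, CHAC1 and BDNF. PCK2 encodes mitochondrial phosphoenolpyruvate carboxykinase, PSAT1 an enzyme of serine synthesis, ASNS asparagine synthetase, CHAC1 a glutathione-degrading enzyme and BDNF a neurotrophin. Likeness was the root mean square difference between log2 CPM, each gene centred on its mean, over the 11317 genes that averaged 5 CPM or more. It was 0.27 for PCK2 and 0.37 for BDNF, against 0.46 for KRT8, the 30th gene in the order, and 0.47 for KRT18, the 37th. The likeness describes these 9 libraries, which share their lines, and carries no test. ASNS had a mean of 198.5 TPM with plvx neo, 76.46 with STBD1 WT and 135.4 with STBD1 W203C. For PSAT1 the means were 159.9, 64.88 and 108.9 TPM in the same order. KRT7 had means of 12.12, 5.51 and 5.92 TPM, and KRT8 had 1940, 1451 and 1503 TPM. Likeness was not scaled for the size of a change. Thus the order does not show that KRT7 shares the shape of these genes more than that of KRT8.

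STBD1 WT against plvx neo compares a line given the protein back with the vector line. Construct and stable line cannot be told apart in any comparison here, and the p-values measure spread between replicates of a line. Of the 9 other keratins 8 were tested and 5 changed, namely KRT19, KRT23 and KRT15 upwards and KRT8 and KRT18 downwards, where 27.8% of all 15289 genes tested changed, 13.9% higher and 13.9% lower. For 6 of the 8, the same 5 and KRT10, the TPM of the groups did not overlap, against 31.3% of all genes. The median log2 fold change of the 8 was 0.17, and that of all genes 0.01.

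KRT8 (ENSG00000170421, chromosome 12, 52897187 to 52949954, minus strand), the type II chain of simple epithelia, was at 1934, 1929 and 1958 TPM with plvx neo, 1474, 1482 and 1399 with STBD1 WT, and 1440, 1470 and 1598 with STBD1 W203C. Its partner KRT18 (ENSG00000111057, chromosome 12, 52948871 to 52952906, plus strand) was at 753.61, 755.24 and 779.56 TPM with plvx neo, 565.13, 552.76 and 578.22 with STBD1 WT, and 573.66, 576.39 and 595.73 with STBD1 W203C. For both genes each construct library was below each plvx neo library, and the constructs overlapped. KRT8 fell by 0.43 on the log2 scale in STBD1 WT vs plvx neo (SE 0.0378, adjusted p = 5.48e-08 by the quasi-likelihood test of edgeR, adjusted after Benjamini-Hochberg), to 0.748 times the TPM of plvx neo. KRT18 fell by 0.44 (SE 0.0344, adjusted p = 9.64e-09 by the same edgeR test), to 0.741 times the TPM. The genes overlap on opposite strands at their outermost annotated starts, so reads of that stretch could be counted to either. KRT8 transcripts with inner starts, such as the one at 52906618, do not reach that stretch.

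KRT80, a type II keratin of many epithelia present here at about 1 TPM, was at 1.25, 1.17 and 1.17 TPM in plvx neo and 1.19, 1.05 and 0.89 in STBD1 WT, with 1.32, 1.21 and 0.98 in STBD1 W203C, and the groups overlapped. Its log2 fold change was -0.17 (95% interval -0.54 to 0.20, edgeR adjusted p = 0.528), so a change of this size could not be resolved at 52 to 85 counts per library.

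KRT19 (ENSG00000171345, chromosome 17, 41523617 to 41528308, minus strand), a type I keratin that has no tail domain, moved the other way. It was at 893.31, 883.48 and 926.91 TPM with plvx neo, 1274, 1208 and 1187 with STBD1 WT, and 928.05, 924.33 and 984.94 with STBD1 W203C. STBD1 WT stood above all other libraries, and STBD1 W203C overlapped plvx neo. The log2 fold change in STBD1 WT vs plvx neo was 0.43 (SE 0.0391, edgeR adjusted p = 7.72e-08), a TPM 35.71% higher.

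KRT15 (ENSG00000171346, chromosome 17, 41513745 to 41522529, minus strand), a type I keratin of basal and progenitor cells that lies next to KRT19, was at 10.74, 11.34 and 9.37 TPM with plvx neo, 17.87, 14.66 and 16.52 with STBD1 WT, and 7.84, 11.26 and 8.26 with STBD1 W203C. STBD1 WT was again above all other libraries. The count-based log2 fold change was 0.98 (SE 0.0720, edgeR adjusted p = 4.40e-09), whereas mean TPM was 1.56 times that of plvx neo, a smaller difference. The RSEM length of KRT15 had a mean of 1892 ± 199.7 bases with plvx neo, 2324 ± 276.6 with STBD1 WT and 2184 ± 279.6 with STBD1 W203C, with overlap of all groups (exact permutation p = 0.2 for STBD1 WT vs plvx neo).

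KRT23 (ENSG00000108244, chromosome 17, 40922700 to 40937646, minus strand), a type I keratin found in some gastrointestinal tumours, was at 4.98, 5.81 and 6.63 TPM with plvx neo, 10.97, 11.08 and 9.17 with STBD1 WT, and 5.92, 6.98 and 7.11 with STBD1 W203C. Only STBD1 WT stood apart. It rose by a log2 fold change of 0.88 in STBD1 WT vs plvx neo (SE 0.103, edgeR adjusted p = 2.76e-06).

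KRT10 and KRT20 did not pass the test. KRT10 was at 64.65, 64.49 and 62.49 TPM in plvx neo and 53.70, 56.64 and 60.62 in STBD1 WT, groups that did not overlap, with a log2 fold change on counts of -0.10 (95% interval -0.22 to 0.02, edgeR adjusted p = 0.205). It overlaps KRT10-AS1 on the opposite strand, which was assigned 297 to 499 counts per library against 747 to 1008 for KRT10. KRT20 was at 0.61, 0.69 and 0.45 TPM with plvx neo, 0.66, 0.99 and 1.28 with STBD1 WT, and 0.50, 0.59 and 0.68 with STBD1 W203C. Its log2 fold change in STBD1 WT vs plvx neo was 0.74 (SE 0.344, edgeR adjusted p = 0.124), at 12 to 33 counts per library.

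STBD1 W203C against STBD1 WT compares the lines with and without the residue change, again with construct and line not to be told apart. The level of STBD1 differed as well, at 8.37 to 10.33 TPM with STBD1 W203C and 10.79 to 10.91 with STBD1 WT. Of the 8 tested, 3 fell and 0 rose by edgeR, with 4 lower and 0 higher at an unadjusted p below 0.05 and 3 lower and 0 higher by DESeq2, which gave KRT20 no adjusted p. Among all 15052 genes tested 27.9% changed, 14.5% higher and 13.4% lower. The 3 were KRT19, KRT23 and KRT15, all lower in STBD1 W203C, and they were also the 3 without overlap in TPM, against 33.1% of all genes. KRT19 fell by 0.40 (SE 0.0420, edgeR adjusted p = 5.35e-07), KRT15 by 1.00 (SE 0.0741, adjusted p = 4.37e-09) and KRT23 by 0.68 (SE 0.106, adjusted p = 5.91e-05) on the log2 scale. The same STBD1 WT libraries enter the comparison above, so the opposite directions of these genes in the comparisons are not separate observations. For KRT8 the difference between constructs was 0.02 (95% interval -0.07 to 0.12, edgeR adjusted p = 0.740) and for KRT18 0.01 (95% interval -0.07 to 0.08, edgeR adjusted p = 0.873). KRT80 had 0.12 (95% interval -0.28 to 0.52), KRT10 0.01 (95% interval -0.11 to 0.13) and KRT20 -0.76 (95% interval -1.48 to -0.04, edgeR adjusted p = 0.111). The median of the 8 was -0.20, and that of all genes -0.01.

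The comparison of STBD1 W203C with plvx neo was added to those of the study. Of the 8 tested, 2 changed, both lower, where 5.7% of all 15081 genes changed, 3.03% higher and 2.67% lower. KRT8 fell by 0.41 on the log2 scale (SE 0.0388, adjusted p = 1.31e-07 by the edgeR quasi-likelihood test) and KRT18 by 0.44 (SE 0.0343, adjusted p = 6.41e-09 by the same edgeR test). TPM did not overlap for these and for KRT10, 3 of 8, against 20.2% of all genes. KRT10 was at 59.03, 59.61 and 56.95 TPM in STBD1 W203C, with a log2 fold change of -0.10 from plvx neo (95% interval -0.21 to 0.02, edgeR adjusted p = 0.370). KRT19 differed by 0.03 (95% interval -0.05 to 0.10), KRT15 by -0.02 (95% interval -0.20 to 0.15) and KRT23 by 0.19 (95% interval -0.05 to 0.43), and none of the 3 passed the test. KRT80 differed by -0.05 (95% interval -0.42 to 0.32) and KRT20 by -0.03 (95% interval -0.80 to 0.74). The median of the 8 was -0.04, with 0.00 for all genes. The same plvx neo libraries enter both comparisons with the vector. The falls of KRT8 and KRT18 in them are thus not separate observations.

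**Figure D3:**
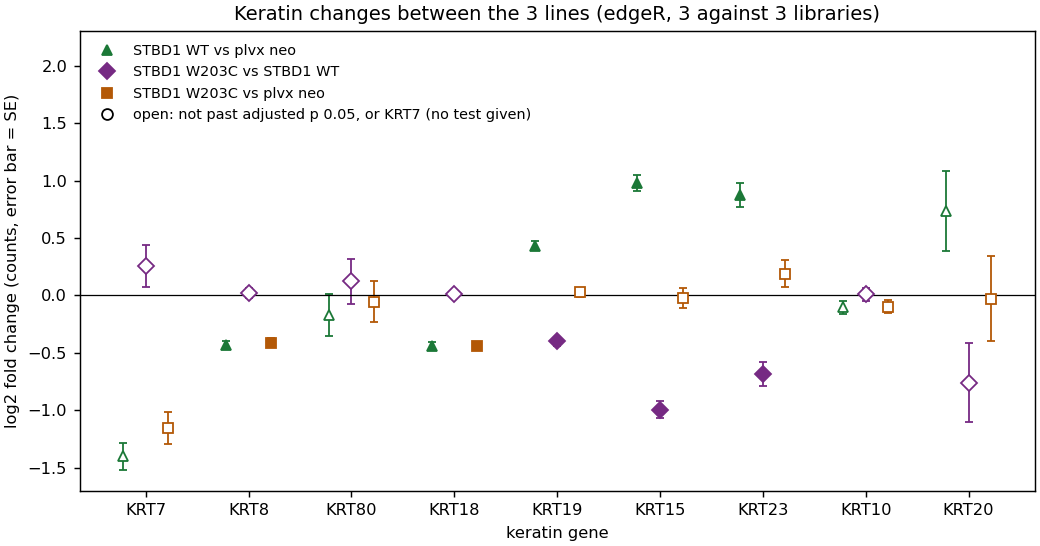
Log2 fold change on counts (y axis, bars are SE) of 9 keratin genes (x axis) in 3 comparisons of 3 against 3 libraries, with filled symbols for an edgeR adjusted p below 0.05 and open symbols otherwise and for KRT7. KRT8 and KRT18 lie near -0.4 against plvx neo with either construct, and KRT19, KRT15 and KRT23 lie above 0 in STBD1 WT vs plvx neo and below 0 in STBD1 W203C vs STBD1 WT.

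In log2 CPM KRT18 was the gene most like KRT8 of the 11317 compared, with a root mean square difference of 0.05 after centring, followed by ITGB5, an integrin subunit, RSL24D1, a ribosome biogenesis factor, ANXA3, an annexin, and KCNG1, a potassium channel subunit, with 0.07 for the last. The TPM ratio of KRT18 to KRT8 was 0.393 ± 0.004 with plvx neo, 0.390 ± 0.021 with STBD1 WT and 0.388 ± 0.013 with STBD1 W203C, with overlap of all groups. The TPM ratio of KRT19 to KRT18 was 1.18 ± 0.01, 2.16 ± 0.10 and 1.62 ± 0.03 in the same order, with overlap of none. In STBD1 WT the raised KRT19 and the lowered KRT18 both enter that ratio, in STBD1 W203C mainly the lowered KRT18.

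Since a filament takes both types in equal number, type I and type II transcripts were summed. The 7 type I genes came to 1745 ± 35 TPM with plvx neo, 1873 ± 43 with STBD1 WT and 1603 ± 44 with STBD1 W203C. The 3 type II genes came to 1954 ± 15, 1458 ± 46 and 1510 ± 85 TPM in the same order, and the constructs overlapped each other. The ratio of type I to type II was 0.893 ± 0.011 with plvx neo, 1.29 ± 0.04 with STBD1 WT and 1.06 ± 0.03 with STBD1 W203C. Its groups did not overlap, with 0.886 to 0.906, 1.24 to 1.32 and 1.03 to 1.09 as their ranges. By these sums type II transcripts were in excess in plvx neo and type I transcripts in both constructs. In STBD1 W203C replicate 3 the sums were 1654 and 1607 TPM, a gap below the 56.95 TPM of KRT10 there. The excess in that library thus rests on KRT10, whose TPM uses an RSEM length of 1116 bases. Its transcripts have 2143 and 2163 bases in GENCODE v44. All 10 genes together held 3698 ± 50 TPM with plvx neo, 3331 ± 73 with STBD1 WT and 3112 ± 129 with STBD1 W203C, and the constructs overlapped. Ratios and sums over these genes carry no p, since the genes were chosen with results known.

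**Figure D4:**
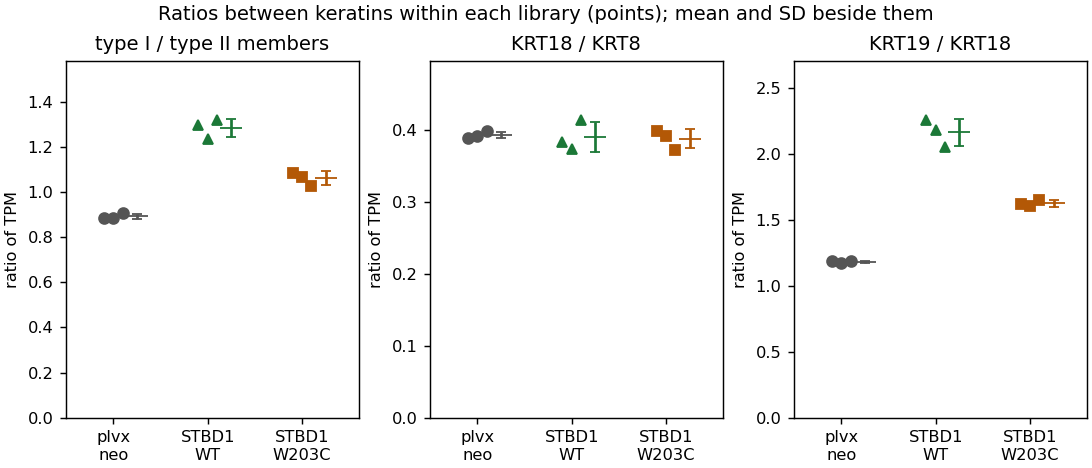
TPM ratios of summed type I to summed type II genes (left), KRT18 to KRT8 (middle) and KRT19 to KRT18 (right) in each library by group, with mean and SD (n = 3) beside the points. The left and right ratios separate all 3 groups, lowest in plvx neo and highest in STBD1 WT, while KRT18 to KRT8 stays between 0.373 and 0.413.

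The remaining keratins were sparse. Of 23 other type II genes 10 were at 0 in every library and 2 had a mean of at least 10 counts, and of 22 other type I genes 7 were at 0 and 4 reached that mean. KRT81, a hair keratin, was at 1.51, 1.35 and 1.56 TPM with plvx neo, 0.37, 0.40 and 0.36 with STBD1 WT, and 0.48, 0.71 and 0.95 with STBD1 W203C. All construct libraries were below plvx neo, and the STBD1 W203C libraries were above those of STBD1 WT. Its log2 fold change was -1.95 (SE 0.300, edgeR adjusted p = 6.24e-05) in STBD1 WT vs plvx neo, -1.08 (SE 0.290, adjusted p = 0.0260) in STBD1 W203C vs plvx neo and 0.87 (SE 0.379, adjusted p = 0.0937) in STBD1 W203C vs STBD1 WT. The second of these calls was lost in 4 of the 6 fits without 1 library (adjusted p up to 0.143), namely those without plvx neo replicates 1 or 3 or STBD1 W203C replicates 1 or 2. KRT86 is a close paralog, so reads may be divided between them, and with the counts of both summed the values were -1.66, -1.10 and 0.57. KRT13, a type I keratin of stratified epithelia, rose in STBD1 WT vs plvx neo (log2 fold change 0.94, SE 0.289, edgeR adjusted p = 0.0187) at 18 to 42 counts per library, while its TPM overlapped between these groups. That call was lost with limma on log2(TPM + 1) (0.29, adjusted p = 0.393), by DESeq2 (adjusted p = 0.0686) and in the edgeR fits without plvx neo replicate 3 (adjusted p = 0.0564) or without STBD1 WT replicate 3 (adjusted p = 0.0710). Thus 1 of 2 other type II genes tested was lower and 1 of 4 other type I genes higher in STBD1 WT vs plvx neo, 0 of 2 and 0 of 3 changed in STBD1 W203C vs STBD1 WT, and 1 of 1 was lower and 0 of 3 changed in STBD1 W203C vs plvx neo, all by edgeR. At an unadjusted p below 0.05 KRT81 and KRT222 were higher and KRT13 lower in STBD1 W203C vs STBD1 WT, and 0 of these type I genes passed in STBD1 W203C vs plvx neo. By DESeq2 KRT81 was lower in STBD1 WT vs plvx neo, and for most of these sparse genes, KRT81 in the other comparisons included, DESeq2 gave no adjusted p.

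By position, the keratins that passed the test as lower in STBD1 WT than in plvx neo, that is KRT81, KRT8 and KRT18, lie in the cluster on chromosome 12, and those that passed as higher, that is KRT13, KRT15, KRT19 and KRT23, in the cluster on chromosome 17. KRT7, which was chosen for its fall and is not counted here, lies on chromosome 12. KRT80 and KRT6A on chromosome 12 and KRT10, KRT20, KRT16, KRT32 and KRT222 on chromosome 17 were tested and did not pass. Other genes nearby, within 200 kb of each end, were then counted, a window set after values had been seen. Of all genes tested, 27.8% changed in STBD1 WT vs plvx neo, 13.9% higher and 13.9% lower. The share was 27.9% in STBD1 W203C vs STBD1 WT and 5.7% in STBD1 W203C vs plvx neo. No test compared positions or windows with other genes. Around KRT8 and KRT18, the 5 genes tested had log2 fold changes of -0.04 to 0.18 in STBD1 WT vs plvx neo (edgeR adjusted p from 0.0971 to 0.715), with TNS2 and IGFBP6 lower in both comparisons of STBD1 W203C. Around KRT7 only KRT81 changed in STBD1 WT vs plvx neo, 1 of 4. There NR4A1, a nuclear receptor gene, was higher in STBD1 W203C than in STBD1 WT (0.28, 1 of 5) and than in plvx neo (0.20, with KRT81 lower, 2 of 5). Around KRT15 and KRT19 only KRT13 did, 1 of 5. Around KRT23 the hair keratin-associated gene KRTAP2-3 rose, 1 of 4, from a mean of 18.7 to 42.22 TPM. With STBD1 W203C it was at 28.74 TPM, lower than with STBD1 WT (-0.58) and higher than with plvx neo (0.57).

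Reads of near-identical copies can be exchanged with those of the gene. The 51 KRT8 pseudogenes held 0.234% to 0.425% of the counts of KRT8 and its copies, led by KRT8P12, KRT8P33 and KRT8P3, and the 67 KRT18 pseudogenes 0.173% to 0.256%. For KRT17 its 8 pseudogenes were assigned 0 to 12 counts in all per library.

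Keratin filaments are anchored at desmosomes by linker proteins. Of 15 keratin linkers and desmosome genes tested, 11 were higher and 1 lower in STBD1 WT vs plvx neo, with a median log2 fold change of 0.25, where 13.9% of all genes were higher and 13.9% lower. The desmosomal cadherin DSC2 rose from a mean of 9.82 ± 0.64 TPM to one of 13.8 ± 0.6 (log2 fold change 0.55, SE 0.0516, edgeR adjusted p = 1.26e-07), plakoglobin JUP from 82.4 ± 5.3 to 117 ± 3.2 TPM (0.50) and plakophilin PKP3 from 69.1 ± 1.6 to 85.5 ± 4.0 TPM (0.34). In STBD1 W203C vs STBD1 WT, 4 of 16 were higher and 7 lower, against 14.5% and 13.4% of all genes, with periplakin PPL at -0.45, JUP at -0.35 and the keratin-binding TCHP at 0.28. In STBD1 W203C vs plvx neo, 6 of 16 were higher and 1 lower, against 3.03% and 2.67% of all genes, with DSC2 at 0.48, the desmosomal cadherin DSC3 at 0.36 and FAM83H, which binds keratins, at 0.33. The call of DSC3 (edgeR adjusted p = 0.0457) was lost by DESeq2 (adjusted p = 0.156) and without any 1 of plvx neo replicates 1, 2 and 3 or STBD1 W203C replicates 1 and 2 (edgeR adjusted p from 0.0826 to 0.216).

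Intermediate filament genes outside the keratins were counted next. Of 11 tested, 3 were higher and 2 lower in STBD1 WT vs plvx neo, where 27.8% of all genes changed, with the lens filament gene BFSP1 at 0.42, the lamin LMNB2 at -0.29 and nestin NES at 0.27 on the log2 scale. Of 10 tested, 2 were higher and 5 lower in STBD1 W203C vs STBD1 WT, where 27.9% of all genes changed, with BFSP1 at -0.48, LMNB1 at 0.30 and LMNB2 at 0.29. In STBD1 W203C vs plvx neo, where 5.7% of all genes changed, 0 of 10 changed by edgeR and 0 of the 6 that DESeq2 gave an adjusted p, with 1 higher and 2 lower at an unadjusted p below 0.05.

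Of 16 epithelial transcription factors tested, 9 were higher and 0 lower in STBD1 WT vs plvx neo by edgeR, as at an unadjusted p below 0.05, and 8 and 0 by DESeq2. Of all genes 13.9% were higher and 13.9% lower there. The largest changes were those of the 3 JUN genes, which encode subunits of AP-1, with JUNB from 189.3 ± 11.7 to 308.3 ± 11.0 TPM (log2 fold change 0.70), JUND from 144.4 ± 4.5 to 241.5 ± 11.2 TPM (0.63) and JUN from 93.1 ± 14.6 to 137.8 ± 6.1 TPM (0.57). In STBD1 W203C vs STBD1 WT 0 were higher and 6 lower by edgeR and by DESeq2 (1 and 7 at an unadjusted p below 0.05), with the epithelial factor ELF3 at -0.31, JUNB at -0.31 and JUN at -0.28. In STBD1 W203C vs plvx neo 7 were higher and 0 lower by edgeR (7 and 2 at an unadjusted p below 0.05, 6 and 0 by DESeq2), with JUND at 0.40, JUNB at 0.39 and KLF6 at 0.36. Over all genes 14.5% were higher and 13.4% lower in STBD1 W203C vs STBD1 WT, and 3.03% and 2.67% in STBD1 W203C vs plvx neo. The list medians in the 3 comparisons were 0.16, -0.19 and 0.14. These comparisons share libraries, and no test compared any list with other genes.

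The marker lists were counted in the same way, against the same shares of all genes (27.8%, 27.9% and 5.7% changed in either direction). Of 4 colon markers tested, 2 were higher and 1 lower in STBD1 WT vs plvx neo (HNF4A 0.42, CDH1 0.27 and EPCAM -0.11 on the log2 scale), 1 was higher and 2 lower in STBD1 W203C vs STBD1 WT, and 0 changed by edgeR or DESeq2 in STBD1 W203C vs plvx neo, with 0 at an unadjusted p below 0.05. The call of EPCAM in STBD1 WT vs plvx neo was lost without plvx neo replicate 1 or 3 or STBD1 WT replicate 1 (edgeR adjusted p from 0.0715 to 0.135), and that in STBD1 W203C vs STBD1 WT without STBD1 WT replicate 1 or STBD1 W203C replicate 3 (edgeR adjusted p = 0.0644 and 0.0947). COL1A1 was 0.48 higher in STBD1 WT vs plvx neo and differed by -0.49 in STBD1 W203C vs STBD1 WT, calls that were lost with limma on log2(TPM + 1) (0.28 with adjusted p = 0.155, and -0.26 with adjusted p = 0.278). CD68, a lysosomal protein of macrophages that other cells also express, differed by 1.01 and -1.48 in these comparisons, the only leukocyte marker tested in either.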

How the data were processed

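Total RNA of 9 HCT116 libraries was sequenced as read pairs. Per the submitters' processing notes and the methods of the study, the authors aligned reads to hg38 with STAR 2.7.1a using Ensembl release 93 and quantified genes with RSEM 1.3.1. The deposited tables hold expected counts (reads divided among compatible transcripts), the TPM that the authors' RSEM run scaled by transcript length, and mean transcript lengths weighted by isoform, in bases. Use of strand was not stated. Totals of 16.9 to 23.3 M counts leave keratins below about 1 TPM poorly resolved. Counts that the authors made with another tool were not used here.

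Gene IDs were matched to symbols for 57754 of 58395 genes (98.9%), and coordinates come from GENCODE v44. Groups follow the sample titles. For each comparison the expected counts of its 6 libraries were rounded, filtered with filterByExpr, scaled by TMM and tested over all genes with the two-sided quasi-likelihood F-test of edgeR 4.0.16 in R 4.3.3. A gene counts as changed at a p below 0.05 after Benjamini-Hochberg adjustment over all genes tested. The SE is the fold change over the square root of F. Lengths were compared by two-sided exact permutation tests, in which 3 against 3 libraries cannot go below p = 0.1. Those for KRT7 are not given. Sums and ratios over the members had been planned with such a test and are given without it. Scripts were tested on simulated data.

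The members and the gene lists were chosen with earlier results of these data known, and 1 listed gene is not reported here. Named were all members and, from each list, up to 3 changed genes with the largest change and a mean of at least 5 CPM, overlapping genes and pseudogenes with a mean count of at least 10, and the 5 genes most like KRT7 and KRT8. Named outside this rule after their values were seen were KRT81, KRT13, neighbouring genes and the low-count overlapping genes. Alternatives were DESeq2 1.42.0 and its size factors, no filter on low counts, all 9 libraries in 1 fit, a replicate block, limma 3.58.1 on log2(TPM + 1), pseudogene and antisense counts added, a change of at least 1.5 times, and leaving out each library. Summing KRT81 and KRT86 was added after the data were seen.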

Additional observations from a re-analysis of the deposited data

How the results depend on the processing

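The counts of keratins changed stayed at 5, 3 and 2, with the same genes, under every alternative of tool, scaling, filter, samples and added pseudogene counts, also with each library left out. The exception was a required change of at least 1.5 times, which left KRT23 and KRT15 (2 genes) in STBD1 WT vs plvx neo, 2 in STBD1 W203C vs STBD1 WT and 0 in STBD1 W203C vs plvx neo, because the changes of KRT8, KRT18 and KRT19 are smaller. The log2 fold change of KRT7 in STBD1 WT vs plvx neo was -1.01 on log2(TPM + 1), a scale that understates changes of low genes, and -1.54 to -1.29 with libraries left out.

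Differences near 0 that passed no test changed sign when 1 library was left out. The lowest and highest values were -0.021 to 0.40 for KRT7, -0.031 to 0.056 for KRT8, -0.012 to 0.029 for KRT18 and -0.011 to 0.059 for KRT10 in STBD1 W203C vs STBD1 WT. In STBD1 W203C vs plvx neo they were -0.012 to 0.049 for KRT19, -0.19 to 0.11 for KRT20 (0.0074 with limma), -0.17 to 0.056 for KRT80 and -0.060 to 0.028 for KRT15. KRT81 in STBD1 W203C vs plvx neo lost its call with limma on log2(TPM + 1) (-0.54). With limma on that scale the linker and desmosome genes called were 5 higher and 0 lower in STBD1 WT vs plvx neo, 0 and 2 in STBD1 W203C vs STBD1 WT and 1 and 0 in STBD1 W203C vs plvx neo, the other intermediate filament genes 0 and 2, 2 and 1, and 0 and 0, the transcription factors 6 and 0, 0 and 4, and 3 and 0, and the colon markers 1 and 0, 0 and 0, and 0 and 0. KRT13 (0.29) and COL1A1 (0.28 and -0.26) also lost their calls there. By DESeq2 the linker genes were 10 and 1, 2 and 7, and 4 and 1. The ratio of type I to type II and the summed TPM kept their direction under all alternatives run. With effective length, which also takes in the fragment size of each library, the length differences of KRT8 were -24.78, 14.96 and -9.81 bases (STBD1 WT against plvx neo first, then STBD1 W203C against STBD1 WT and against plvx neo), those of KRT18 -18.91, 7.29 and -11.62 and those of KRT19 -14.92, 8.48 and -6.44. By RSEM length they were -11.25, 8.0 and -3.25 for KRT8, -5.34, 0.30 and -5.04 for KRT18 and -1.36, 1.5 and 0.14 for KRT19. In RSEM length, groups did not overlap for KRT8 in STBD1 WT vs plvx neo and for KRT18 in both comparisons with plvx neo. Each of these had an exact permutation p of 0.1, the smallest possible. All other RSEM lengths of these genes overlapped between groups.

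In fits with a replicate block the counts of changed keratins were again 5, 3 and 2, and KRT7 in STBD1 WT vs plvx neo was at -1.41. The numbers do not pair the libraries: deviations of same-numbered libraries correlated across genes at -0.0203 to 0.0603. Keratins under about 30 counts per library, such as KRT20, are limited by depth.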
